A study of Mus musculus with 24 samples.

Results

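The genes described here are the chemokines and their receptors: 53 genes of the 18193 that the arrays resolved to a single symbol. They were taken by symbol alone, as every gene named Ccl, Cxcl, Cx3cl1 or Xcl1 with its number, every Ccr, Cxcr, Cx3cr1 and Xcr1 receptor, and the 4 atypical receptors Ackr1 to Ackr4. Each gene was read on 1 probe set, the one with the highest mean over all arrays. The 53 genes comprise 18 CC ligands, 13 CXC ligands, 2 other ligands (Cx3cl1 and Xcl1), 16 signalling receptors and 4 atypical receptors. The rule itself uses symbols and no measured value.

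The study measured RNA on Affymetrix mouse arrays in 24 samples, 3 in each of 8 groups, and asked how the basic helix-loop-helix factors MyoD, which drives muscle differentiation, and NeuroD2, which drives neuronal differentiation, act in different cells. P19 is a mouse embryonal carcinoma line. The fibroblasts (MEFs) were mouse embryonic fibroblasts derived from Myod-/-/Myf5-/- mice, which is a genotype that all MEF groups share, controls included. Batch 1 held untransduced P19 cells, P19 cells transduced with MyoD lentivirus, untransduced MEFs and MEFs transduced with MyoD lentivirus. Batch 2 held untransduced MEFs and MEFs transduced with NeuroD2 lentivirus, and batch 3 untransduced P19 cells and P19 cells transduced with NeuroD2 lentivirus. Per the labels' protocols, infection took place in medium with 8 µg/ml polybrene, the medium was renewed after 24 hours, and P19 cells were collected 72 hours after infection. MEFs given MyoD were moved 48 hours after infection to a medium with 1% horse serum, 10 µg/ml insulin and 10 µg/ml transferrin, and were collected 36 to 40 hours after that move. For MEFs given NeuroD2, neither a change to that medium nor a time of collection is stated in the labels. The controls received no virus, so the factor, the virus and, for MyoD in MEFs, the differentiation medium cannot be told apart. Ages, sexes and a promoter for the viral insert are not stated there either. Nothing states that the 3 samples of a group were separate cultures, and the p-values then measure only the spread between these samples, which may be technical.

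Chemokines are small secreted proteins that bind G-protein-coupled receptors and guide the movement of cells along a gradient. CC and CXC ligands are named for the spacing of their first cysteines. Many of the genes lie side by side in clusters and are induced through the transcription factor NF-kB or by interferon. Fibroblasts are a known source of Cxcl12 and, when stimulated, of ligands that draw monocytes (Ccl2, Ccl7), eosinophils (Ccl11) and neutrophils (Cxcl1, Cxcl5). Atypical receptors bind chemokines without coupling to the usual G proteins, and Ackr3 takes up Cxcl12, which otherwise signals through Cxcr4.

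The transduced gene was examined first. Myod1 was higher by a log2 difference of 3.94 in P19 cells labelled MyoD and of 5.55 in MEFs labelled MyoD (limma, adjusted p = 1.72e-14 and 1.86e-18). The MEF controls of batch 1 read 7.18 for Myod1, against 5.72 in the P19 controls, and the labels do not place this probe set relative to the deletion in the MEFs. Neurod2, on its probe set, differed by 0.21 in both P19 cells and MEFs labelled NeuroD2 (limma, adjusted p = 0.709 and 0.664). The sources used here do not place that probe set relative to the viral insert, so it does not check the label. All 7 neuron markers were higher in P19 cells labelled NeuroD2, with a median log2 difference of 3.20, and 1 of 7 was higher in MEFs labelled NeuroD2, with a median of 0.09. All 7 muscle markers rose in MEFs with MyoD and 5 of 7 in P19 cells with MyoD. In the MEF controls the mean level of 8 fibroblast markers lay between 12.55 and 12.92, and the P19 controls held 7 pluripotency markers at a mean level between 9.44 and 10.13. One array was outlying. P19 control replicate 2 of batch 1 had quartiles of 4.79 and 7.63, against 4.47 to 4.58 and 8.23 to 8.39 for the other 23 arrays. Among the 53 genes, this array was the highest of its group for 40 and the lowest for 12, and every one of the 18 genes with its highest mean in the batch 1 P19 controls owed the top value of that group to it. Differences of called family genes that use this array are therefore also given without it.

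Promoter sequences were read for the genes that had one, and 5 are shown. They are those of the ligands Cxcl1, Cxcl10, Ccl9 and Ccl8, which fell with MyoD in MEFs, and of the receptor Ackr3, which rose. With NeuroD2 in MEFs Ccl9 rose, while Cxcl1, Cxcl10 and Ccl8 fell. Cxcl5, Ccl11, Ccl7, Ccl2 and Ccl5, which also fell with MyoD, had no promoter sequence among those used. Each run is the 250 bases before the annotated start in RefSeq's table for build GRCm38.p6, on the gene's own strand, 5′ to 3′. Capitals mark matches on either strand to the NF-kB consensus or to CAGCTG and CAGATG, letters of the CANNTG E-box that basic helix-loop-helix factors bind.
Cxcl1: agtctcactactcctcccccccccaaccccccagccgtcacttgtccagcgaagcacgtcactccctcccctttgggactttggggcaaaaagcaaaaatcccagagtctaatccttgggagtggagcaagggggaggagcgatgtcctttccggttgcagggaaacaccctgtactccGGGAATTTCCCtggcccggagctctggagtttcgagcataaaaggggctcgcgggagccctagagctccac
Cxcl10: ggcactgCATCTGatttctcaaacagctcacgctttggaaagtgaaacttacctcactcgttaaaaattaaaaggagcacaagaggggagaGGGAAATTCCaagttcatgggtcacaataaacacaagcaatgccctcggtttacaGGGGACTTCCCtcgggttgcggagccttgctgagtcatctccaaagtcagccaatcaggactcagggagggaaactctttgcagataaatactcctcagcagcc
Ccl9: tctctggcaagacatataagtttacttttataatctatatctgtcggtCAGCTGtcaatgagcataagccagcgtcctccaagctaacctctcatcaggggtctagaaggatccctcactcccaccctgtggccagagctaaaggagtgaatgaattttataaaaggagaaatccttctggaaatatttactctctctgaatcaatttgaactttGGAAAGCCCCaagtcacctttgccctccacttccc
Ccl8: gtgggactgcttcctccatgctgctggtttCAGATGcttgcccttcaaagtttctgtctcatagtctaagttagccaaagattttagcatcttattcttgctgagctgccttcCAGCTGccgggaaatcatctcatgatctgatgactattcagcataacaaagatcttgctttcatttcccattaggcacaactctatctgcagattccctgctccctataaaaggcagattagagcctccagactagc
Ackr3: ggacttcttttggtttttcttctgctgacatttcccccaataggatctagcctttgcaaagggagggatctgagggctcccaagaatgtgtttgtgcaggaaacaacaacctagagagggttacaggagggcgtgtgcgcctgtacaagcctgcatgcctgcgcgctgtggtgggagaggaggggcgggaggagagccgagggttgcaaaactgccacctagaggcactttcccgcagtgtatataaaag
The Cxcl1 window is chr5:90890995-90891244 on the plus strand, and Cxcl10 is chr5:92348890-92349139 on the minus strand. Ccl9 is chr11:83578637-83578886 on the minus strand, Ccl8 is chr11:82114935-82115184 on the plus strand, and Ackr3 is chr1:90203730-90203979 on the plus strand. The RefSeq table matched 40 of the 53 genes, with 44 windows that run from 250 bases before to 50 after a start. The NF-kB consensus was found in 12 of those 44 windows (27.3%) and in 8.46% of all 32851 windows. CAGCTG was found in 18.2% of the family's windows and 16.3% of all, CAGATG in 18.2% and 17.2%, and the general CANNTG, which contains both of these, in 77.3% and 72.3%. Each motif was sought on both strands. Of the 12 genes that fell with MyoD in MEFs, 6 had a window, and the NF-kB consensus was in 4 of them (Ccl20, Ccl9, Cxcl1 and Cxcl10). It was in 2 of the 5 windows of genes that fell with NeuroD2 in MEFs (Cxcl1 and Cxcl10), in 1 of 4 of those that rose with MyoD (Ccr3) and in 1 of 2 of those that rose with NeuroD2 (Ccl9). In Cxcl1 the matches overlap about 70 bases before the start. The window of Cxcl12, which fell with both factors in MEFs and is not shown, held none of the motifs sought. A match describes letters only, and binding was not measured.

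**Figure D1:**
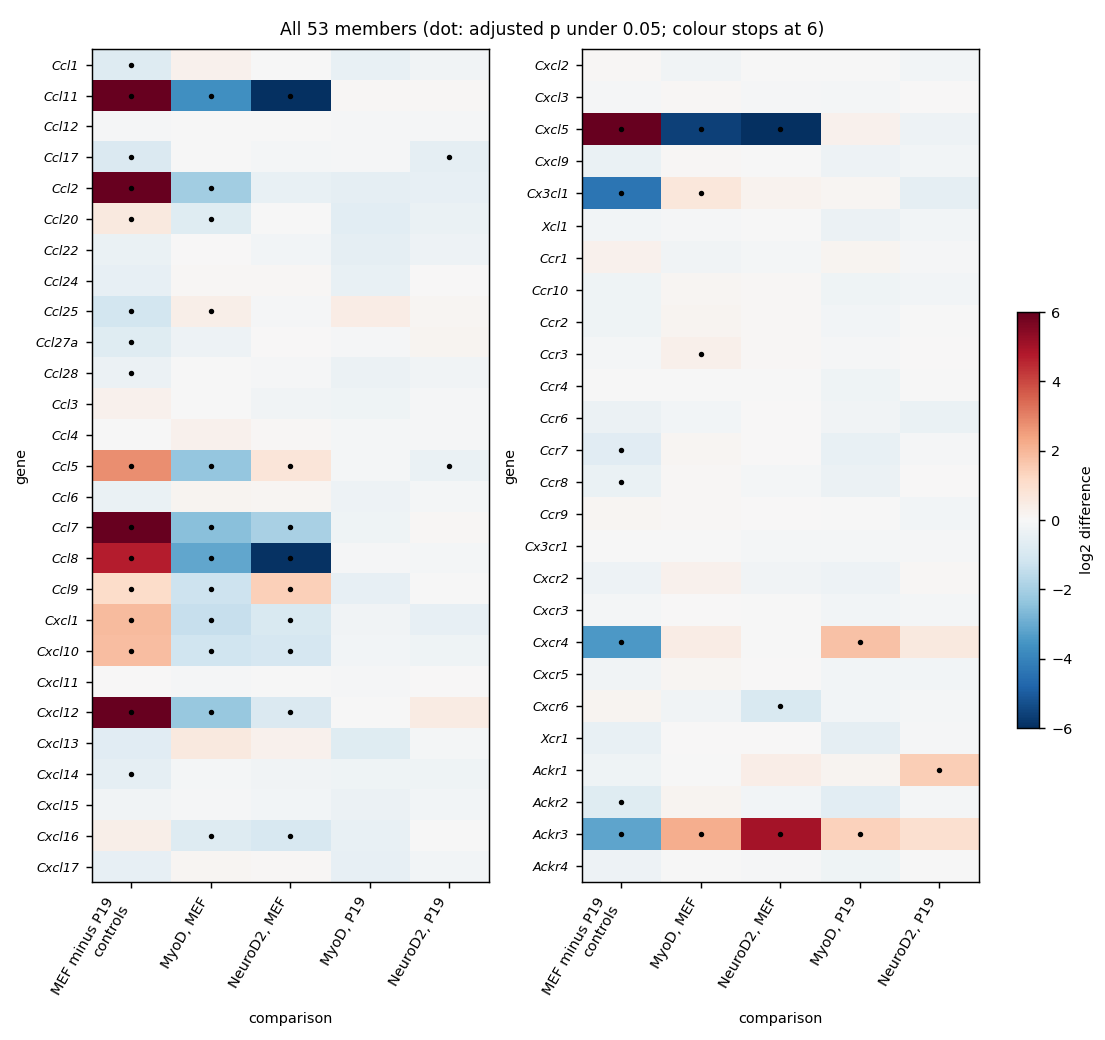
Colour gives the log2 difference of each of the 53 genes (rows) in 5 comparisons (columns), red for higher and blue for lower, with colours that stop at 6, and a dot marks an adjusted p under 0.05 in limma. The columns for MEFs carry the deepest colours, and most receptors are pale in all 5.

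Most of the family was dim in these cells. The median of all gene values was 7.03 on the log2 scale, and 17 of the 53 genes had a group mean above it in at least 1 group, while 36 stayed below it in every group. The arrays have no detection calls, so a low value does not show that a gene was silent, and differences against such values may be understated. A gene was called where its adjusted p was under 0.05 in limma, adjusted over all 18193 genes. Of the 53 genes, 27 were called in at least 1 of the 5 main comparisons and 26 in none. The group means of those 26 spanned between 0.15 and 1.04 on the log2 scale, the widest being Cxcl13, a B-cell attractant. They include the macrophage and T-cell ligands Ccl3, Ccl4, Ccl22 and Cxcl9, the neutrophil ligand Cxcl2, and the leukocyte receptors Ccr1, Ccr6, Cxcr2 and Cxcr3. Ccr2, the receptor for Ccl2, had a highest group mean of 7.07, just above the median of all gene values, in the P19 controls of batch 1, and was called in none of the 5.

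The starting states were compared first, untransduced MEFs against untransduced P19 cells of batch 1. MEFs carried a set of inflammatory and homeostatic ligands at levels far above P19 cells, while P19 cells carried Cx3cl1 and the receptors Cxcr4 and Ackr3. In this comparison 51.7% of all genes were called, 24.8% higher and 26.9% lower. Of the 53 genes, 11 were higher in MEFs and 12 lower, with a median log2 difference of -0.21 against -0.12 for all genes. All 11 that were higher are ligands, 7 of the CC and 4 of the CXC type. Both of the atypical receptors called, Ackr2 and Ackr3, and all 3 of the signalling receptors called, Ccr7, Ccr8 and Cxcr4, were lower.

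Ccl2, the main monocyte attractant, read 13.41, 13.43 and 13.46 in the MEF controls and 5.44, 7.31 and 5.58 in the P19 controls. The groups are far apart, and the P19 value of 7.31 came from the outlying array. Its log2 difference was 7.32 (SE 0.294, limma, adjusted p = 1.67e-14), and 7.92 without that array. Cxcl12, which holds stem and progenitor cells through Cxcr4, read 13.89, 13.79 and 13.81 in MEFs and 8.02, 6.74 and 8.14 in P19 cells, a difference of 6.19 (SE 0.216), and 5.75 without that array. The other probe sets of Cxcl12 gave 3.11, which was called, and 0.08, which was not. Ccl7 was higher by 7.10, Cxcl5 by 6.86, Ccl11 by 6.78 and Ccl8 by 4.73, and without that array by 7.13, 6.74, 6.85 and 4.74. These 6 ligands are the ones with the widest gaps on the chosen probe sets. The log2 differences of the others were 2.81 for Ccl5, 1.90 for Cxcl1, 1.84 for Cxcl10, 1.11 for Ccl9 and 0.58 for Ccl20. Without that array they were 2.83 for Ccl5, 2.01 for Cxcl1, 2.02 for Cxcl10 and 1.65 for Ccl9. Both other probe sets of Cxcl1 gave wider gaps, 7.15 and 5.21. The genes called here had 14 other probe sets, of which 9 gave the same call, 0 the opposite one and 5 none. Ccl5 attracts T cells, Cxcl10 is the interferon-induced ligand of Cxcr3, and Ccl20 is the ligand of Ccr6. The values of Ccl20 overlapped between the groups. Those of Ccl9 overlapped through the outlying array, at 6.05 against 4.51 and 4.30 in the other P19 controls.

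Cx3cl1, the membrane-bound ligand fractalkine, read 10.42, 9.42 and 10.29 in the P19 controls and 5.79, 5.41 and 5.78 in the MEF controls. It was lower in MEFs by a log2 difference of 4.38 (limma, adjusted p = 4.90e-13), and the difference was -4.69 without the outlying array. Cxcr4 was lower in MEFs by 3.45 and Ackr3 by 3.16, and without that outlying array the differences were -4.23 and -3.82. Ccl25, a thymus and gut ligand, was lower by 1.09 and Ccl17, a ligand of Ccr4, by 0.87. The other genes called lower were Ccl1, Ackr2, Ccl27a, Ccr7, Cxcl14, Ccr8 and Ccl28, with log2 differences from -0.79 for Ccl1 to -0.35 for Ccl28. Without the outlying array 20 of the 53 were called, 12 higher and 8 lower, beside 55.4% of all genes. Of those that stayed lower, Ccl25 was then at -1.26, Ccl17 at -0.82, Ccl27a at -0.65, Cxcl14 at -0.39 and Ccl1 at -0.36. Ackr2 (-0.25, adjusted p = 0.174), Ccr7 (-0.29, 0.103), Ccr8 (-0.17, 0.184), Ccl28 (-0.17, 0.209) and Ccl20 (0.26, 0.161) lost their call in limma, and Cxcl16, a membrane-bound ligand of Cxcr6, gained it at 0.81, as did Ccl3 at 0.36. The other probe set of Cxcl16 was called higher at 1.80 with all arrays.

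In MEFs with MyoD, the ligands that untransduced MEFs carried far above P19 cells were lower. Against the MEF controls of batch 1, 12 of the 53 genes fell and 4 rose, where 14.5% of all genes fell and 10.8% rose (25.3% in all). The 12 that fell were all ligands, 7 of 18 CC and 5 of 13 CXC. The 4 that rose were Ackr3, Cx3cl1, Ccl25 and the eosinophil receptor Ccr3. The median of the family was -0.02, against 0.00 for all genes, since 37 of the 53 were not called, and those spanned -0.29 for Ccl27a to 0.60 for Cxcl13. Of the genes not called, Cxcl13 and Ackr4 were called higher on other probe sets. The differences there were 1.04 for Cxcl13 and 0.96 and 0.89 for Ackr4 (limma, adjusted p = 2.05e-05, 0.00839 and 0.0130). This comparison shares the batch 1 MEF controls with the one between cell types, so their values are set side by side and not correlated.

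**Figure D2:**
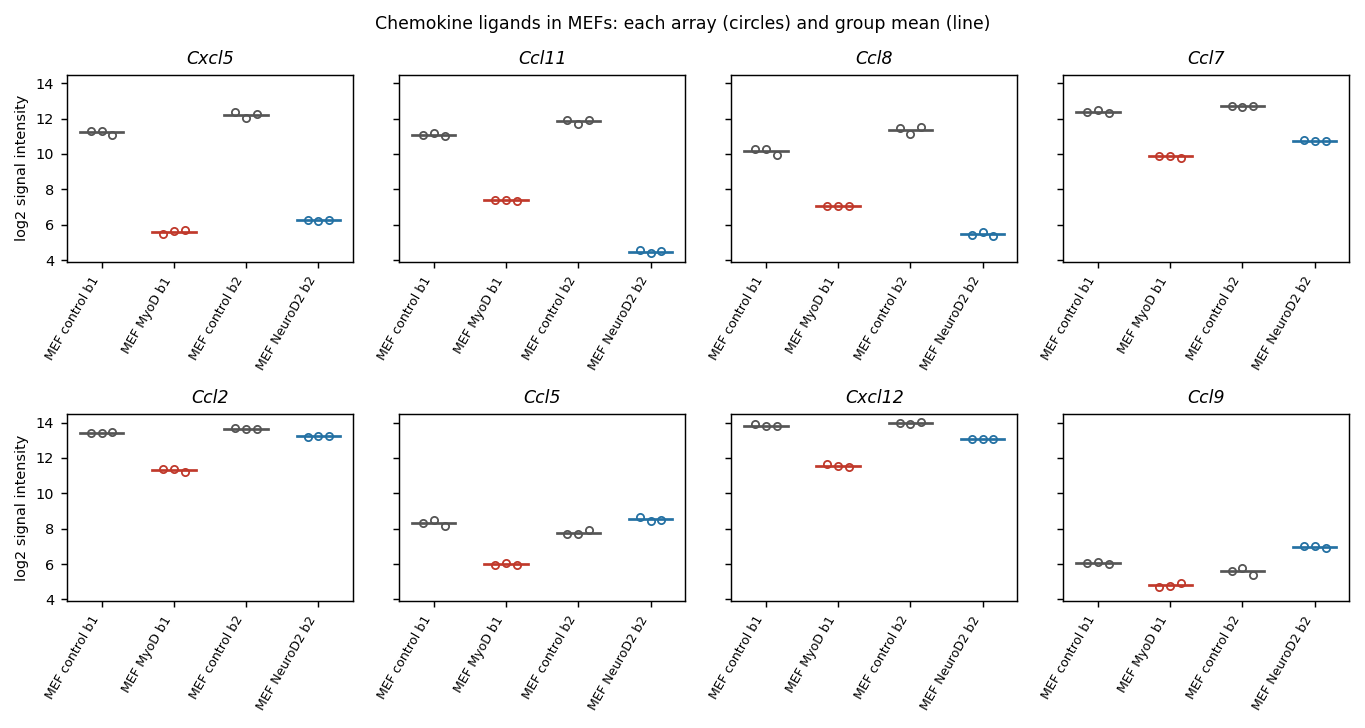
Log2 signal intensity of 8 ligands in the 4 MEF groups (control and MyoD of batch 1, control and NeuroD2 of batch 2), with each of 3 arrays as a circle and the group mean as a line. Cxcl5, Ccl11 and Ccl8 sit low with either factor, Ccl2 stays near its control with NeuroD2, and Ccl5 and Ccl9 are low with MyoD and above their own controls with NeuroD2.

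Cxcl5, a neutrophil ligand of Cxcr2, read 11.28, 11.32 and 11.05 in the MEF controls and 5.45, 5.64 and 5.70 with MyoD. No array of either group came near the other. The mean fell from 11.22 to 5.60, a log2 difference of -5.62 (SE 0.126, limma, adjusted p = 1.86e-18) or 49.2-fold. Ccl11, or eotaxin, read 11.07, 11.17 and 11.02 in the controls and 7.42, 7.41 and 7.34 with MyoD, a difference of -3.70 (SE 0.122, limma, adjusted p = 1.13e-15). Ccl8, a ligand of Ccr8 in the mouse, read 10.25, 10.25 and 9.94 in the controls and 7.08, 7.04 and 7.04 with MyoD. Its difference was -3.10 (SE 0.111). These values are 8.56-fold lower for Ccl8 and 13.0-fold lower for Ccl11.

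The monocyte ligands fell less. Ccl7 read 12.35, 12.51 and 12.30 in the controls and 9.90, 9.91 and 9.78 with MyoD, a log2 difference of -2.53 (SE 0.225). Ccl2 read 11.37, 11.38 and 11.22 with MyoD, -2.11 (SE 0.294) from the controls given above, and so stayed well above the median of all genes. Ccl5 fell from 8.34, 8.47 and 8.14 to 5.94, 6.05 and 5.95, a difference of -2.33 (SE 0.123). Ccl9, a ligand of Ccr1, fell from 6.06, 6.09 and 6.01 to 4.73, 4.75 and 4.94, a difference of -1.25 (SE 0.278). The groups did not overlap for any of these genes, and the share of all genes without overlap was not counted. Ccl20 fell by 0.72 against the batch 1 controls (limma, adjusted p = 0.00973). Against the batch 2 MEF controls its difference was -0.02 (limma, adjusted p = 0.958), so the call rests on the controls used.

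Among the other CXC ligands, Cxcl12 read 11.63, 11.56 and 11.51 with MyoD, -2.26 (SE 0.216) from its controls. Its other probe sets gave -3.21, which was called, and -0.22, which was not. Cxcl1, the neutrophil ligand also known as KC, fell from 10.56, 10.56 and 10.49 to 9.09, 9.20 and 9.20, a difference of -1.37 (SE 0.149). Both other probe sets of Cxcl1 gave larger falls, -2.56 and -2.31. Cxcl10 fell by 1.22 and Cxcl16 by 0.76, the latter from 8.30, 8.20 and 8.32 to 7.44, 7.55 and 7.56. The Cxcl16 call (limma, adjusted p = 0.0214) was lost under 5 of 16 alternatives, and its other probe set gave -1.83. Over all genes called with MyoD in MEFs in this family, 10 other probe sets were present, of which 6 gave the same call, 0 the opposite one and 4 none.

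Ackr3 rose from 4.76, 4.60 and 4.57 to 6.79, 6.74 and 6.90 with MyoD. Every MyoD array was above every control, and the log2 difference was 2.17 (SE 0.353, limma, adjusted p = 6.09e-05), or 4.49-fold. Cx3cl1 rose by 0.67 (SE 0.217), from 5.79, 5.41 and 5.78 to 6.16, 6.45 and 6.37, and lost its call under 3 of 16 alternatives. Its other probe sets gave 0.60, which was called, and -0.03 and 0.05, which were not. Ccl25 rose by 0.37 and Ccr3 by 0.30, with adjusted p-values of 0.0373 and 0.044 in limma. Ccl25 lost its call under 7 of 16 alternatives and Ccr3 under 7 of 15, and Ccr3 did not exceed 4.26 in any array of these groups.

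In MEFs with NeuroD2, the ligands Ccl11, Cxcl5 and Ccl8 were lower by still wider margins, and Ackr3 was higher. Against the MEF controls of batch 2, 9 of the 53 genes fell and 3 rose, where 5.94% of all genes fell and 6.41% rose (12.3% in all). Of the CXC ligands 5 of 13 and of the CC ligands 3 of 18 fell, with the receptor Cxcr6, and Ccl5, Ccl9 and Ackr3 rose. The median of the family was -0.03, against -0.02 for all genes, and the 41 genes not called spanned -0.43 for Ccl2 to 0.40 for Ackr1.

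Ccl11 read 11.94, 11.68 and 11.93 in the batch 2 MEF controls and 4.55, 4.38 and 4.51 with NeuroD2. The transduced MEFs were thus at the level of P19 cells, where Ccl11 lay between 4.07 and 4.59. The log2 difference was -7.37 (SE 0.122, limma, adjusted p = 9.87e-20). Cxcl5 fell from 12.36, 12.05 and 12.27 to 6.26, 6.22 and 6.28, a difference of -5.97 (SE 0.126), or 62.7-fold. Ccl8 fell from 11.47, 11.15 and 11.53 to 5.39, 5.59 and 5.37, a difference of -5.93 (SE 0.111), or 61.1-fold. For all 3 ligands the groups lay far apart.

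Ccl7 fell from 12.71, 12.66 and 12.69 to 10.78, 10.71 and 10.71, a difference of -1.95 (SE 0.225). Its neighbour in function, Ccl2, read 13.70, 13.61 and 13.62 in the controls and 13.21, 13.23 and 13.21 with NeuroD2. Those groups did not overlap, yet the difference of -0.43 (95% interval -1.04 to 0.19) was not called (limma, adjusted p = 0.514). Without the outlying P19 control array, which enters only through the shared estimate of spread, it was called at an adjusted p of 0.00609. Cxcl12 fell from 13.98, 13.89 and 14.01 to 13.07, 13.10 and 13.10, a difference of -0.87 (SE 0.216). Cxcl1 fell by 0.90, Cxcl10 by 0.99 and Cxcl16 by 0.95 on the log2 scale. The receptor Cxcr6, which binds Cxcl16, read 5.47, 5.22 and 4.45 in the controls and 4.13, 3.99 and 4.22 with NeuroD2, a difference of -0.93. With the MEF controls of batch 1 in place of batch 2, Cxcr6 (-0.36, limma, adjusted p = 0.223) and Cxcl16 (-0.47, 0.231) lost their calls.

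Ackr3 rose from 4.67, 4.79 and 4.34 to 9.71, 9.61 and 9.43 with NeuroD2. The log2 difference was 4.98 (SE 0.353, limma, adjusted p = 1.25e-09), or 31.6-fold, and the transduced MEFs had the highest mean of the 8 groups at 9.58. Ccl9 rose from 5.61, 5.75 and 5.38 to values between 6.92 and 7.03, a difference of 1.41 (SE 0.278). Ccl5 rose from 7.71, 7.68 and 7.94 to 8.67, 8.41 and 8.48, a difference of 0.74 (SE 0.123, limma, adjusted p = 0.000172). Against the MEF controls of batch 1, in which Ccl5 was higher, the difference was 0.20 (limma, adjusted p = 0.352), so the rise of Ccl5 depends on the controls used. All 7 other probe sets of the genes called with NeuroD2 in MEFs gave the same call.

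**Figure D3:**
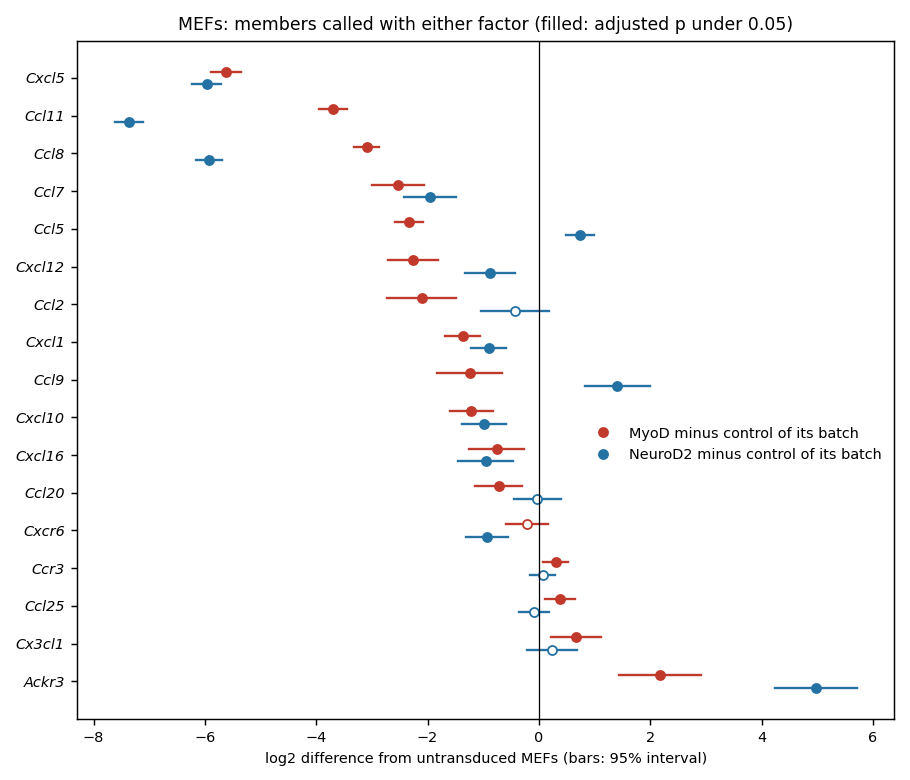
Log2 difference from untransduced MEFs of the same batch (horizontal axis) for each gene called with either factor (rows), with 95% intervals as bars, MyoD in red, NeuroD2 in blue and filled points where adjusted p was under 0.05. The 8 ligands that fell with both factors lie left of 0, Ackr3 lies right of 0 with both, and Ccl5 and Ccl9 lie on opposite sides.

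The effects of the factors in MEFs were set against each other in a test of their difference, each against its own controls. Genes that fell with both factors numbered 8, which are 8 of the 12 that fell with MyoD and 8 of the 9 that fell with NeuroD2: Ccl7, Ccl8, Ccl11, Cxcl1, Cxcl5, Cxcl10, Cxcl12 and Cxcl16. Ackr3 rose with both, Ccl5 and Ccl9 fell with MyoD and rose with NeuroD2, and 36 genes were called with neither. Of all genes 14.5% fell with MyoD and 5.94% with NeuroD2. The share of all genes called with both was not counted, so this overlap has no background to set it against. The difference itself passed the test for 7 of the 53 genes, 2 higher and 5 lower with MyoD than with NeuroD2, where 18.8% of all genes passed, 8.33% higher and 10.5% lower. Ccl11 fell further with NeuroD2 by a log2 difference of 3.67 (limma, adjusted p = 1.15e-12) and Ccl8 by 2.83 (1.61e-11). The MyoD effect minus the NeuroD2 effect was -3.07 for Ccl5, -2.82 for Ackr3, -2.65 for Ccl9, -1.68 for Ccl2 and -1.39 for Cxcl12. The other probe sets of Cxcl12 gave -1.25, which was called, and 0.37, which was not, and that of Ccl9 gave -2.29, which was called. Cxcl1 (-1.36 and -1.24) and Cxcl13 (1.10) were called on other probe sets only. The Ccl2 difference had an adjusted p of 0.00553 in limma, so that the fall of Ccl2 with MyoD was larger than any change with NeuroD2. Without the outlying P19 control array, 12 of the 53 differed, beside 35.7% of all genes. The collection times of the MEF groups and their media may differ, as stated above, and factor and batch cannot be told apart in this contrast.

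The MEF controls of the batches were not the same for the leading ligands. In batch 2 the log2 level of Ccl8 exceeded that in batch 1 by 1.23, of Cxcl5 by 1.01 and of Ccl11 by 0.76, and Ccl5 was lower by 0.54 (limma, adjusted p = 2.01e-06, 9.60e-05, 0.00102 and 0.0198). These were the 4 genes of the 53 called, where 2.28% of all genes were called, 1.16% higher and 1.12% lower. Without the outlying P19 control array, 8 were called, beside 16.3% of all genes. With the controls exchanged between batches the effects on these ligands kept their sign and call apart from Ccl5 with NeuroD2. With NeuroD2 the differences were then -6.61 for Ccl11, -4.96 for Cxcl5 and -4.70 for Ccl8. With MyoD they were -4.46 for Ccl11, -6.63 for Cxcl5 and -4.33 for Ccl8. Ackr3 differed by 2.21 with MyoD and 4.94 with NeuroD2 under that exchange.

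Several of these genes are neighbours. In RefSeq's gene order for GRCm38.p6 the protein-coding genes Ccl2, Ccl7, Ccl11, Ccl12, Ccl8 and Ccl1 follow each other without another between them, and so do Ccl5, Ccl9, Ccl6, Ccl3 and Ccl4. In the first run Ccl2, Ccl7, Ccl11 and Ccl8 fell with MyoD, while Ccl12 and Ccl1 were dim and not called. Ccl12 lay between 3.81 and 4.26 in all 24 arrays, between the strongly expressed Ccl11 and Ccl8. With NeuroD2 the falls within this run were unequal, -7.37 for Ccl11, -5.93 for Ccl8 and -1.95 for Ccl7 beside -0.43 for Ccl2. In the second run Ccl5 and Ccl9, which adjoin, were the genes that fell with MyoD and rose with NeuroD2, and Ccl6, Ccl3 and Ccl4 were called with neither factor. Cxcl1 lies in a run with Cxcl3, Cxcl15 and Cxcl2, and of these 4 only Cxcl1 was called in the 5 main comparisons. Cx3cl1 lies between Ccl22 and Ccl17.

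**Figure D4:**
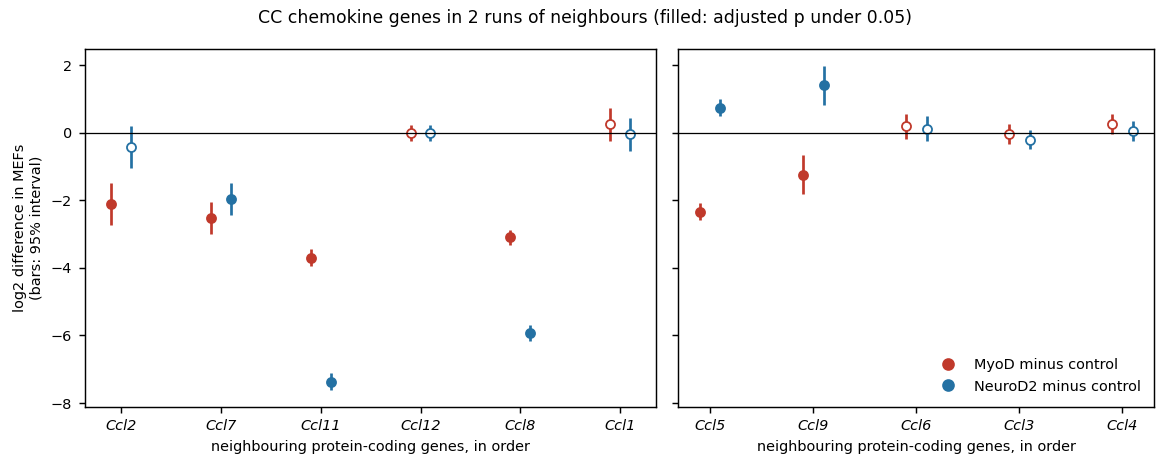
Log2 difference in MEFs (vertical axis, 95% intervals as bars) for CC ligand genes placed in their chromosomal order, 6 neighbours on the left and 5 on the right, with MyoD in red, NeuroD2 in blue and filled points where adjusted p was under 0.05. Within the left run the NeuroD2 points spread from -0.43 for Ccl2 to -7.37 for Ccl11, and in the right run the factors part at Ccl5 and Ccl9.

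In P19 cells few genes of the family were called with either factor, and few of all genes were. These counts depend on the arrays kept, as given in the closing part. With MyoD 2 of the 53 genes rose and 0 fell, where 2.03% of all genes rose and 0.676% fell (2.71% in all). The median was -0.19, against 0.04 for all genes. At an unadjusted p under 0.05, 9 of the 51 other genes would have passed. Cxcr4, the signalling receptor for Cxcl12, read 8.35, 6.10 and 8.54 in the batch 1 P19 controls and 9.31, 9.51 and 9.38 with MyoD. The control array at 6.10 is the one that stood apart. The difference was 1.74 (SE 0.374, limma, adjusted p = 0.0117) with it and 0.96 (adjusted p = 0.000126) without it. Against the P19 controls of batch 3, which read 8.83, 8.97 and 8.81 for Cxcr4, the difference was 0.53 (limma, adjusted p = 0.481).

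Ackr3 read 8.33, 6.49 and 8.59 in the batch 1 P19 controls and 9.14, 9.07 and 9.36 with MyoD, a log2 difference of 1.39 (SE 0.353, limma, adjusted p = 0.0368). Without the outlying array, which gave the 6.49, it was 0.73 (adjusted p = 0.0605), so the call for Ackr3 rests on that array. Without it 3 of the 53 genes were called with MyoD in P19 cells, beside 3.95% of all genes. Of these, Cxcr4 rose, and Ccl20 (-0.94) and Cxcl12 (-0.49) fell. Cxcl12 then read 8.02 and 8.14 in the controls and 7.53, 7.55 and 7.70 with MyoD.

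With NeuroD2 in P19 cells, 1 of the 53 genes rose and 2 fell, where 5.1% of all genes rose and 3.24% fell (8.34% in all). Ackr1, an atypical receptor that takes up inflammatory chemokines on red cells and venules, read 5.75, 6.17 and 6.13 in the batch 3 controls and 7.18, 7.74 and 7.51 with NeuroD2. The groups did not overlap, and the log2 difference was 1.46 (SE 0.153, limma, adjusted p = 8.14e-07), or 2.75-fold. In MEFs Ackr1 read 5.71, 5.78 and 6.03 in the batch 2 controls and 5.99, 6.41 and 6.33 with NeuroD2, which was not called. Ccl17 fell by 0.54, from 6.60, 7.13 and 6.81 to 6.49, 6.13 and 6.30. Ccl5 fell by 0.41, from 5.44, 5.62 and 5.37 to 5.10, 5.10 and 5.01 (limma, adjusted p = 0.0446), and lost its call under 8 of 16 alternatives.

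The Cxcl12 receptors were read in NeuroD2 P19 cells as well, and neither was called. Ackr3 read 7.67, 8.56 and 8.33 in the controls and 9.56, 8.96 and 8.86 with NeuroD2, a log2 difference of 0.94 (95% interval 0.21 to 1.68) that was not called. Cxcr4 read 9.59, 9.43 and 9.28 with NeuroD2, 0.56 above its controls, and was not called. Cxcl12 itself read 8.90, 8.82 and 8.78 in the controls and 9.34, 9.26 and 9.33 with NeuroD2, a difference of 0.47 that was not called. For all 3 genes the groups did not overlap, but the share of all genes without overlap was not counted, so this adds no support. Without the outlying array, which is in neither group and enters through the shared spread, 12 of the 53 genes were called beside 22.1% of all genes, 4 higher and 8 lower. Ackr3, Cxcr4 and Cxcl12 were among the 4. Cx3cl1, at 9.95, 10.04 and 10.04 in the controls and 10.00, 9.12 and 9.24 with NeuroD2, was then among the 8.

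**Figure D5:**
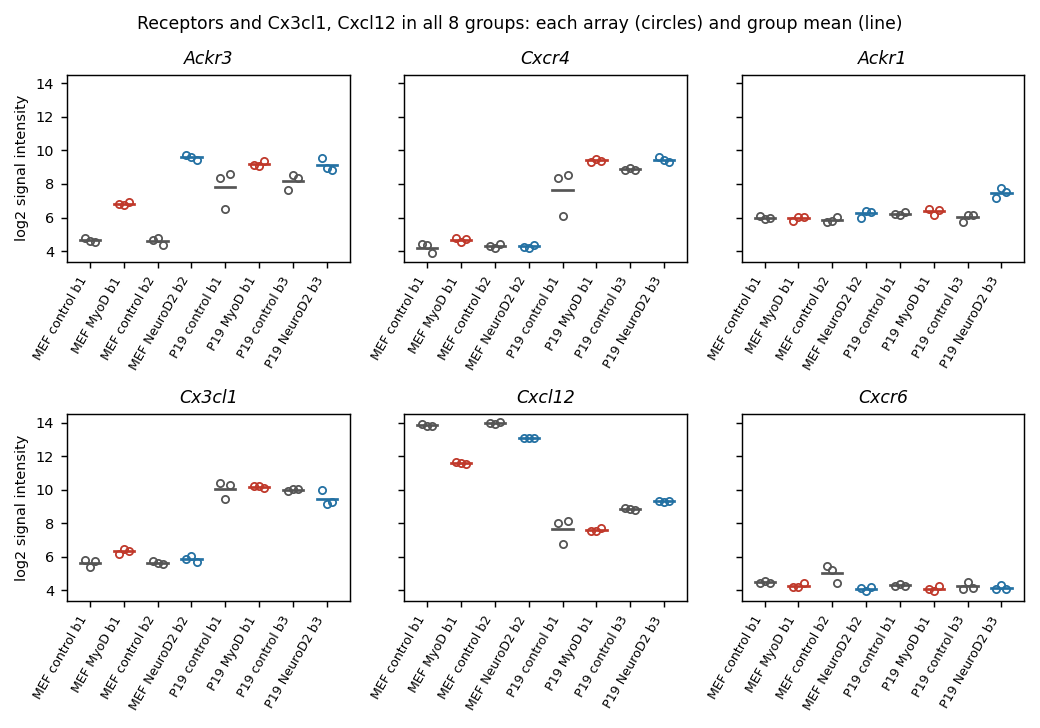
Log2 signal intensity of 4 receptors and of the ligands Cx3cl1 and Cxcl12 in all 8 groups (b1, b2 and b3 are the batches), with each of 3 arrays as a circle and the group mean as a line. Ackr3 is lowest in the MEF controls and highest in MEFs with NeuroD2, Cxcr4 and Cx3cl1 are high in the P19 groups only, and 1 array of the batch 1 P19 controls lies away from the others.

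Across the 4 factor comparisons the log2 differences of Ackr3 were 2.17 with MyoD and 4.98 with NeuroD2 in MEFs, and 1.39 and 0.94 in P19 cells, where it started higher. The call at 1.39 rested on the outlying array. It was also lost against the P19 controls of batch 3 (1.01, limma, adjusted p = 0.0731), and the 0.94 was not called. By group mean Ackr3 ranked from MEFs with NeuroD2 at 9.58 down to the batch 2 MEF controls at 4.60. The untransduced P19 cells of the batches were compared as well. Cxcl12 and Cxcr4 were each higher in batch 3 by 1.20, and Cxcl16 and Cxcr2 were lower by 0.75 and 0.53. These were the 4 of 53 called, where 14.1% of all genes were called, 10.6% higher and 3.48% lower. Without the outlying array, the difference was 0.76 for Cxcl12 and 0.42 for Cxcr4, which were still called, and -0.30 for Cxcl16 and -0.35 for Cxcr2, which were not.

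The effect of each factor was also compared between the cell types. For MyoD, the effect in MEFs minus that in P19 cells was lower for 9 of the 53 genes and higher for 1, where 14.7% of all genes were lower and 6.39% higher (21.1% in all). For NeuroD2 it was lower for 7 and higher for 3, where 5.63% and 4.53% of all genes were (10.2% in all). Cxcl5, Ccl11, Ccl8, Ccl7 and Cxcl12 were lower in both contrasts. All but Cxcl12 lay low in P19 cells, where a further fall could hardly be read. For those ligands the contrast cannot show whether the factor acts differently in P19 cells. The values of each gene are given in the closing part.

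Genes that act beside the chemokines were read from 3 lists, beside the shares of all genes given above (14.5% lower and 10.8% higher with MyoD in MEFs, 5.94% and 6.41% with NeuroD2). Of 37 measured genes for chemokine signalling and handling, 11 fell and 2 rose with MyoD in MEFs (median -0.11, all genes 0.00), and 5 fell and 2 rose with NeuroD2 (median 0.03, all genes -0.02). With MyoD the proteoglycan gene Gpc1 rose by 4.81, the chemokine-cleaving protease gene Mmp2 fell by 2.86, and the kinase gene Jak2 fell by 1.42. Gnai1, which encodes an inhibitory G-protein subunit, rose by 1.84 with MyoD and 2.40 with NeuroD2. Sdc1, a proteoglycan gene, rose by 2.43 with NeuroD2.

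Of 42 measured inducers of chemokines, 25 fell with MyoD in MEFs, with a median of -0.74, and 6 fell with NeuroD2, with a median of -0.16. Tlr2, a receptor for bacterial lipoproteins, fell by 3.04 with MyoD and 2.13 with NeuroD2, and Il1rap, the co-receptor for interleukin 1, by 2.69 and 1.21. Nfkbiz, a regulator of NF-kB targets such as Ccl2, fell by 2.06 with MyoD. Il13ra1, part of the receptor through which interleukin 13 induces Ccl11, fell by 2.82 with NeuroD2. With MyoD Il13ra1 read 6.18, against 7.06 in the batch 1 MEF controls. Its level in the batch 2 MEF controls exceeded that in batch 1 by 1.49. Of 20 measured interferon response genes, 17 fell with MyoD in MEFs, with a median of -2.18, among them Oasl2 by 4.73 and Gbp2 by 4.46. With NeuroD2, 6 of the 20 fell and 1 rose, with a median of -0.24. The difference between the factors was lower with MyoD for 15 of the 20, beside 10.5% of all genes. In untransduced MEFs 31 of the 42 inducers and 18 of the 20 interferon genes were higher than in P19 cells, beside 24.8% of all genes. In P19 cells with MyoD, 2 of the 42 inducers rose and 3 fell, and 1 of the 20 interferon genes rose (Rsad2, by 2.08). Of the 37 signalling genes 0 were called, where 2.03% of all genes rose and 0.676% fell. In P19 cells with NeuroD2, 4 of the 42 inducers and 3 of the 20 interferon genes fell. Of the 37 signalling genes 3 rose and 2 fell, where 5.1% of all genes rose and 3.24% fell.

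Markers of other cells were read beside these results. Of 8 fibroblast markers, 6 fell with MyoD in MEFs, with a median of -1.74, and 1 fell with NeuroD2, with a median of -0.40. Their mean level was 12.55 to 12.74 in the batch 1 controls, 10.63 to 10.80 with MyoD, 12.84 to 12.92 in the batch 2 controls and 12.37 to 12.44 with NeuroD2. In a bulk sample fewer cells of a type and less RNA per cell cannot be told apart, and the part of this fall in the ligand values was not tested. Of 12 measured leukocyte and macrophage markers, 11 were below the median of all genes in the MEF controls of both batches, with the pan-leukocyte gene Ptprc at 4.14 in batch 1 and lower still in batch 2. The exception was Cd14, at 8.07 and 8.33, which fell by 1.95 with MyoD and by 0.52 with NeuroD2 (limma, adjusted p = 6.09e-09 and 0.039). Its part in the ligand values was not tested. With MyoD in MEFs 2 of the 12 fell, Cd14 and Lyz2 (-0.48), and 2 rose, Adgre1 (0.49) and Itgam (0.36). Of all genes 14.5% fell and 10.8% rose. With NeuroD2 2 fell, Cd14 and Cd68 (-0.33), and 1 rose, Lyz2 (0.47), where 5.94% of all genes fell and 6.41% rose. The mean level of the 12 markers was 5.53 to 5.60 in the batch 1 controls and 5.37 to 5.43 with MyoD, and 5.55 to 5.77 in the batch 2 controls and 5.52 to 5.59 with NeuroD2. All 6 endothelial markers were below the median of all genes in every group.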

How the data were processed

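The authors' deposited table holds log2 signal intensities of 45101 probe sets, whose quartiles nearly match in 23 of the 24 arrays, so they were normalized before deposit by a method that the sources used here do not give. Limma, with no version, is named in the submitters' processing notes. Left out were 64 control probe sets, 9160 without a symbol and 932 with several symbols, 4 of which name a chemokine gene. The other 34945 gave 18193 genes. Limma 3.58.1 in R 4.3.3 fitted 8 group means over all 24 arrays (16 residual degrees of freedom, 3.89 prior), without a replicate block. P-values are two-sided and adjusted by Benjamini-Hochberg over all genes. The procedure was tested on simulated data. Groups, batches and replicate numbers came from the sample titles, because the characteristics describe samples of both factors as neuronal. The number of arrays limits the precision, and low signals are compressed toward background. Same-numbered samples did not deviate together in every pair (correlations from -0.19 to 0.34), so numbers were not taken to pair them. No arrays were duplicates, since any pair differed by at least 0.876 in some gene. Named were genes called in a comparison, genes above the median of all values, and at most 4 called genes from each other list. The family and the lists were picked with earlier results of these data known, although the rule for the family's genes uses symbols only. The alternatives tried were another normalization, probe set choices, a filter on dim genes, array weights, a replicate block, fits on fewer groups, controls of another batch and each array left out. Python 3.11.15 with pandas 2.3.3 and matplotlib 3.10.9 read the promoters and drew the figures.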

Additional observations from a re-analysis of the deposited data

Results flagged for a closer look

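The effect of a factor differed between MEFs and P19 cells, by a limma test of the difference over all genes, for 10 of the 53 genes with MyoD and 10 with NeuroD2. Each value below is the log2 effect in MEFs minus that in P19 cells. The MyoD contrast uses the outlying P19 control array.

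With MyoD the contrast was -5.88 for Cxcl5, -3.76 for Ccl11 and -3.02 for Ccl8, ligands that lay low in P19 cells from the start. A fall of these ligands could hardly be read in P19 cells, so their contrasts mostly repeat the fall in MEFs. The contrast was -2.26 for Ccl7, -2.23 for Ccl5 and -2.22 for Cxcl12, and -1.56 for Ccl2, -1.18 for Cxcl1 and -1.03 for Cxcl10. Ccl7, Ccl5, Ccl2 and Cxcl10 lay low in P19 cells as well. Their lowest means among the 8 groups were 5.02, 5.07, 5.11 and 4.91. A fall of the size seen in MEFs could hardly be read there. Cxcl13 gave 1.33 (limma, adjusted p = 0.0375), with 6.39, 6.94 and 6.57 in MEFs with MyoD, 6.14, 6.11 and 5.86 in their controls, and 6.17, 7.98 and 6.05 in the P19 controls. The 7.98 is the outlying array, and without it the Cxcl13 contrast was 0.71 (limma, adjusted p = 0.0115). Without that array the contrast was -5.75 for Cxcl5, -3.84 for Ccl11, -3.03 for Ccl8, -2.29 for Ccl7, -2.25 for Ccl5, -1.77 for Cxcl12, -2.16 for Ccl2, -1.30 for Cxcl1 and -1.21 for Cxcl10. Then 16 genes passed in place of 10, beside 30.6% of all genes, among them Ackr3 at 1.43 and Ccl9 at -1.29. With all arrays, other probe sets were called for Cxcl1 (-2.36 and -1.85) and Cxcl13 (1.25), and for Cxcl16 (-1.57), which is not among the 10. Those of Cxcl12 gave -2.90, which was called, and -0.13, which was not.

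With NeuroD2 the contrast was -7.46 for Ccl11, -5.79 for Ccl8, -5.66 for Cxcl5, -2.04 for Ccl7 and -1.35 for Cxcl12. All of these but Cxcl12 lay low in P19 cells, so their contrasts mostly repeat the fall in MEFs. Ackr3 gave 4.04, Ccl9 1.42 and Ccl5 1.15, the last with a rise in MEFs and a fall in P19 cells. Ackr1 gave -1.06, its rise in P19 cells being the larger. Cxcr6 gave -0.84 (limma, adjusted p = 0.0403) and lost its call under 12 of 17 alternatives, and Ccl9 under 4 of 17. The other probe set of Cxcr6 gave -0.14, which was not called, while those of Cxcl12 (-1.82 and -0.61) and Ccl9 (1.51) were called. Cxcl1 (-1.24 and -1.12) and Cxcl16 (-1.51) were called on other probe sets only. So was Cx3cl1 on 1 probe set (1.16), with 0.06 and 0.22 on others that were not called. These NeuroD2 samples of the cell types come from different batches, so cell type and batch cannot be told apart in that contrast.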

How the results depend on the processing

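Among 91 gene calls over all 10 comparisons, 61 kept call and direction under every alternative run for them and 30 lost the call under at least 1. The 2 reversals were Cx3cl1 with MyoD in P19 cells, -0.23 with array weights (which stopped before converging), and Cxcr2 with NeuroD2 in P19 cells, -0.47 with P19 controls of batch 1. Neither was called in its main comparison. Counts of the 53 genes called in MEFs stayed within 1.5 times of the 16 with MyoD (12 to 18 with arrays left out) and of the 12 with NeuroD2 (12 to 14). With MyoD in P19 cells the 2 became 1 without _s_at, _x_at and _a_at probe sets, 13 with array weights, 0 in a fit of only the groups compared, and 0 to 18 with arrays left out (14 and 18 without control replicates 1 and 3). With NeuroD2 in P19 cells the 3 became 13 with array weights, 19 with P19 controls of batch 1, and 2 to 12 with arrays left out (12 without the outlying array). Between MEF and P19 controls the 23 became 14 without dim genes, 35 with array weights, 15 in a fit of only the groups compared, and 20 to 34 with arrays left out. The difference between factors in MEFs gave 12 in place of 7 in a fit of only those groups, and 7 to 12 with arrays left out. The MyoD effect between cell types gave 9 to 17 in place of 10 with arrays left out. The batch contrast of MEF controls gave 9 in place of 4 in a fit of only those groups and 3 to 8 with arrays left out, and that of P19 controls 0 and 1 to 16 in place of 4. The cause was not tested. With the replicate block, in which the pairing is by number only, MyoD in P19 cells gave 1 in place of 2, MyoD in MEFs 14 and NeuroD2 in MEFs 13. With MyoD in MEFs, 21 to 33 inducers and 12 to 18 interferon genes fell under the alternatives.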
